A study of Mus musculus with 2 samples.

Results

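The 10 genes described here carry calcium and iron across the absorptive cells of the small intestine: S100g, Trpv6, Atp2b1 and Vdr for calcium, and Slc40a1, Slc11a2, Cybrd1, Heph, Fth1 and Ftl1 for iron. They were chosen by gene symbol from the 32285 genes of each library, and all 10 were found in both. Their levels in epithelial classes, along the villus, beside S100g and in immune and red cells were among the values they were selected on, so every level and difference below is a description without a test. The data were single cell RNA counts from 2 libraries of epithelium from the proximal small intestine, both of the genotype C57BL/6 and both controls of a series on mice with reduced M1 or M3 muscarinic receptors. The library titled M1 control is called control 1 and the library titled M3 control is called control 2. The labels name no treatment, age or receptor allele for these controls and do not say whether the libraries came from separate animals, so differences between them may be technical. Cells of the villus, released by EDTA, and cells of the crypt, released by a trypsin-like enzyme, were pooled before 10x Genomics 3′ libraries were made, in which each captured RNA molecule is counted once near its 3′ end by a unique molecular identifier (UMI).

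Calcium crosses the enterocyte in 3 steps. The channel TRPV6 admits it at the brush border, calbindin-D9k, the product of S100g, carries it through the cytosol, and the plasma membrane pump PMCA1, the product of Atp2b1, extrudes it at the basolateral side. The vitamin D receptor, encoded by Vdr, is the nuclear receptor through which calcitriol induces this pathway. Dietary iron is reduced at the brush border by duodenal cytochrome b (Cybrd1), imported by the divalent metal transporter DMT1 (Slc11a2) and exported by ferroportin (Slc40a1), with the copper oxidase hephaestin (Heph) oxidising it for transferrin. Iron that is not exported is stored in ferritin, a shell of heavy (Fth1) and light (Ftl1) chains, and is lost when the cell is shed. Both pathways are known to be strongest in the duodenum.

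Iron also acts on several of these RNAs directly, through the iron-responsive element, a hairpin in an untranslated region (UTR) that iron regulatory proteins bind when iron is scarce. The letters of this hairpin were looked for in the UTRs of the members, because they set the ferritin chains and ferroportin apart from the other members. The pattern was an unpaired C, 5 bases, the loop CAGTG plus 1 further base, and 5 bases able to pair with the 5 before the loop. It was read on the transcribed strand of spliced transcripts of the GENCODE M21 annotation of GRCm38. It was present in the 5′ UTR of Fth1 at chr19:9982732-9982760 (plus strand, 3 of 3 transcripts), of Ftl1 at chr7:45459779-45459807 (minus strand, 1 of 2) and of Slc40a1 at chr1:45925465-45925493 (minus strand, 1 of 1). For contrast, Tfrc, the transferrin receptor, is known for hairpins at the other end of its RNA, and the pattern occurred 4 times in its 3′ UTR, at chr16:32631219-32631247 (plus strand) and 3 further places. Capitals mark the unpaired C and the 6 bases of the loop.
Fth1: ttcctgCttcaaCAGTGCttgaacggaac
Ftl1: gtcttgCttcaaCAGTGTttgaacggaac
Slc40a1: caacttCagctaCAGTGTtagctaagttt
Tfrc: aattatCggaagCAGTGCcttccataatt
The pattern was present in the 5′ UTR of 28 of 21087 genes (0.133%) and in the 3′ UTR of 128 of 21112 genes (0.606%). These letters were not in the UTRs of the other 7 members, which says nothing about looser hairpins such as the one known in an isoform of Slc11a2. Counts near the 3′ end pool the isoforms of a gene, so levels below are per gene.

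The members lie on 8 chromosomes of GRCm38. S100g (X, 162961992 to 162964599, minus strand) lies within a stretch also annotated as Ctps2 on the other strand, Heph (X, 96455359 to 96574485) overlaps the pseudogene Rpl17-ps8 and Gm14935 on its own strand and Hsf3 on the other, and Ftl1 (7, 45457944 to 45459884) overlaps Gm22133 on its own strand and Gm10252 on the other. Slc11a2 (15, 100387898 to 100425072) overlaps Gm5475 on the other strand and shares its chromosome with Vdr (15, 97854425 to 97910630). No overlap was annotated for Vdr, Fth1 (19, 9980598 to 9985098), Slc40a1 (1, 45908068 to 45926523), Atp2b1 (10, 98914406 to 99026143), Cybrd1 (2, 71117923 to 71142926) or Trpv6 (6, 41620624 to 41636405). No source used here says whether counting used strand. Ftl1 has near-identical copies elsewhere, so its count may be split with them.

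Control 1 held 54451793 UMIs in 9342 barcodes and control 2 held 36139325 UMIs in 7109 barcodes, of which 7061 and 4711 cells were kept. Of these, 3591 cells in control 1 and 2419 cells in control 2 were named enterocyte-like from 12 markers, and 405 and 159 progenitor-like, 114 and 252 goblet-like, 16 and 13 Paneth-like, 24 and 10 enteroendocrine-like, and 18 and 8 tuft-like. T or NK cell-like cells, called T/NK-like below, numbered 2528 and 1617, and myeloid-like cells 180 and 78. Of the listed ileal genes, the bile acid binder Fabp6 was near 0 in the enterocyte-like cells (1 UMI in each library). Slc10a2 had 19 UMIs there in control 1 and 9 in control 2. Slc51a (3030 and 916 UMIs) and Slc51b (3512 and 1553), of the same list, were well detected. Gata4, a factor of the proximal intestine, had 2245 UMIs there in control 1 and 1539 in control 2, fewer than Slc51b in both. The enterocyte-like class was uneven. A cluster of 198 cells in control 1 and 100 in control 2, with medians of 43025 and 32884.5 UMIs and 9.77% and 15.2% mitochondrial UMIs, gave 10515365 of the 21329148 enterocyte-like UMIs of control 1 and 3562842 of the 11718845 of control 2. Most other enterocyte-like cells had under 1% mitochondrial UMIs (2992 of 3591 and 1931 of 2419), so the results are given with both kinds together and apart. The libraries shared 17 barcodes, 7 of them kept in both.

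The ferritin heavy chain gene was the most abundant member, and 7 of the 10 members stood at least 2-fold higher in enterocyte-like cells than in the other epithelial classes in both libraries. These were S100g, Atp2b1, Slc40a1, Slc11a2, Cybrd1, Fth1 and Ftl1; the other 3, Trpv6, Vdr and Heph, were higher in both libraries but passed 2-fold in only 1 or neither. Among all 13345 genes with at least 10 UMIs over both sides in each library, 9.62% were higher by this rule and 20.6% were lower, and no member was lower. Because the members were selected on such values, these shares are printed for scale. When cells with 10% or more mitochondrial UMIs were left out and the rest clustered and named anew, 2 members were higher and 2 lower, and the log2 ratios of Atp2b1, Slc40a1 and Slc11a2 turned to -1.52, -0.32 and -1.39. A cluster with 71.8% and 56.7% of its UMIs from cells named enterocyte-like before was then named progenitor-like. In the same cells with the earlier class names, 5 members were higher and 0 lower, and these ratios were 0.90, 3.07 and 1.86. Shares over all genes are not given for these changed settings, nor for those below other than the division at 1% mitochondrial UMIs. Levels are in CPM, the UMIs of a gene scaled to 1000000 UMIs of the class, summed over its cells in each library.

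S100g had 3309 CPM (95% counting interval 3285 to 3334) in enterocyte-like cells of control 1 and 2447 (2419 to 2475) in those of control 2, against 171 and 43.7 in the other epithelial classes pooled. Both enterocyte values lay above every other class in either library, and the log2 ratio averaged 5.02 ± 1.07 (SD, n = 2 libraries). The enterocyte-like cells held 98.2% and 99.1% of the epithelial UMIs of S100g. At 2000 UMIs per cell, 41.3% of 2155 enterocyte-like cells in control 1 and 34.2% of 1410 in control 2 had an S100g UMI, so most had none at this depth. In T/NK-like cells, which should lack the gene, 10.2% of 2157 and 7.84% of 1263 cells had one at the same depth. Without thinning the shares were 45.8% and 38.8% of enterocyte-like cells (median 2411 and 2323 UMIs) against 20.6% and 15.6% of T/NK-like cells (median 5120 and 4657 UMIs).

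Trpv6, the entry channel, was barely detected. It had 34 UMIs in 17 cells of control 1 and 20 UMIs in 10 cells of control 2 among enterocyte-like cells, 1.59 and 1.71 CPM, against 3 and 0 UMIs in the other epithelial classes. At this depth a difference between classes could not be read.

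Atp2b1, the exit pump, was not highest in enterocytes. Enterocyte-like cells had 249 (242 to 255) and 198 (190 to 206) CPM, enteroendocrine-like cells 363 (314 to 418) and 355 (289 to 431), and tuft-like cells 249 and 251. Enterocyte-like and tuft-like levels did not differ beyond their spread over libraries (223 ± 36.1 and 250 ± 2.02, SD, n = 2). Myeloid-like cells were at 241 and 190. Progenitor-like cells (86.2 and 114), goblet-like cells (36.0 and 27.2) and Paneth-like cells (36.1 and 37.0) were lower, which placed enterocyte-like cells above the other epithelial classes together by a log2 ratio of 1.45 ± 0.10.

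Vdr did not separate enterocyte-like from progenitor-like cells. The level was 271 (264 to 278) and 259 (250 to 268) CPM in enterocyte-like cells and 234 (219 to 249) and 302 (274 to 333) in progenitor-like cells, in opposite orders in the 2 libraries. Tuft-like cells had 172 and 44.4 (58 and 6 UMIs), enteroendocrine-like cells 105 and 84.3, and Paneth-like cells 75.5 and 88.5. The order of these classes was not the same in both libraries. T/NK-like cells had 8.49 and 9.04.

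Among the iron genes, Slc40a1, the exporter, was at 76.2 (72.5 to 80.0) and 68.9 (64.3 to 73.9) CPM in enterocyte-like cells, against 7.03 and 5.01 in the other epithelial classes (log2 ratio 3.40 ± 0.19). The next class by the mean of the libraries was enteroendocrine-like at 20.2 and 24.6, from 11 and 7 UMIs. Slc11a2, the importer, was at 42.9 (40.2 to 45.8) and 37.5 (34.0 to 41.1) against 9.11 and 8.09 (log2 ratio 2.10 ± 0.03). Progenitor-like cells (11.9 and 14.4) and T/NK-like cells (13.1 and 13.1) had similar lower levels of Slc11a2. At 2000 UMIs per cell its share of cells with a UMI was 2.60% and 2.91% in enterocyte-like cells against 2.36% and 2.53% in T/NK-like cells, so the share at that depth did not separate the classes that the levels separated.

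Cybrd1, the reductase, differed most between the libraries. Enterocyte-like cells had 7.03 (5.95 to 8.25) CPM in control 1 and 35.5 (32.2 to 39.1) in control 2, with 150 UMIs in 26 cells and 416 UMIs in 39 cells. Paneth-like cells, with 8 and 9 UMIs, had 6.56 and 8.76 CPM, and the remaining epithelial classes held at most 2 UMIs in a library. In control 1 the intervals of enterocyte-like and Paneth-like cells overlapped. Enterocyte-like cells stood above the other epithelial classes by a log2 ratio of 2.80 ± 1.41.

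Heph, the oxidase, was not highest in enterocytes either. Its highest level was in tuft-like cells, with 284 (230 to 347) and 362 (268 to 479) CPM from 96 and 49 UMIs in 18 and 8 cells. Enterocyte-like cells had 106 and 128 and goblet-like cells had 136 and 130, lower in enterocyte-like cells by about the spread of the libraries (117 ± 15.3 and 133 ± 4.69). At 2000 UMIs per cell, 5.80% and 8.58% of enterocyte-like cells had a Heph UMI, against 33.3% and 26.1% of goblet-like cells and 0.510% and 0.554% of T/NK-like cells.

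The ferritin genes were detected in nearly all enterocyte-like cells. Fth1 had 31300.1 and 20598 CPM in enterocyte-like cells, against 3712 and 1679 in the other epithelial classes (log2 ratio 3.35 ± 0.38). Ftl1 had 2302 and 1837 against 776 and 545 (1.66 ± 0.13). Tuft-like cells were the nearest epithelial class for both genes, with 8678 and 6499 for Fth1 and 2136 and 2654 for Ftl1, so Ftl1 did not separate tuft-like from enterocyte-like cells. The tuft-like cells, few in number, also carried 13844 and 15476 CPM of Fabp1, an abundant enterocyte gene, against 23296 and 20670.0 in enterocyte-like cells, and the part of enterocyte RNA in their levels of Heph, Fth1 and Ftl1 was not tested.

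**Figure D1:**
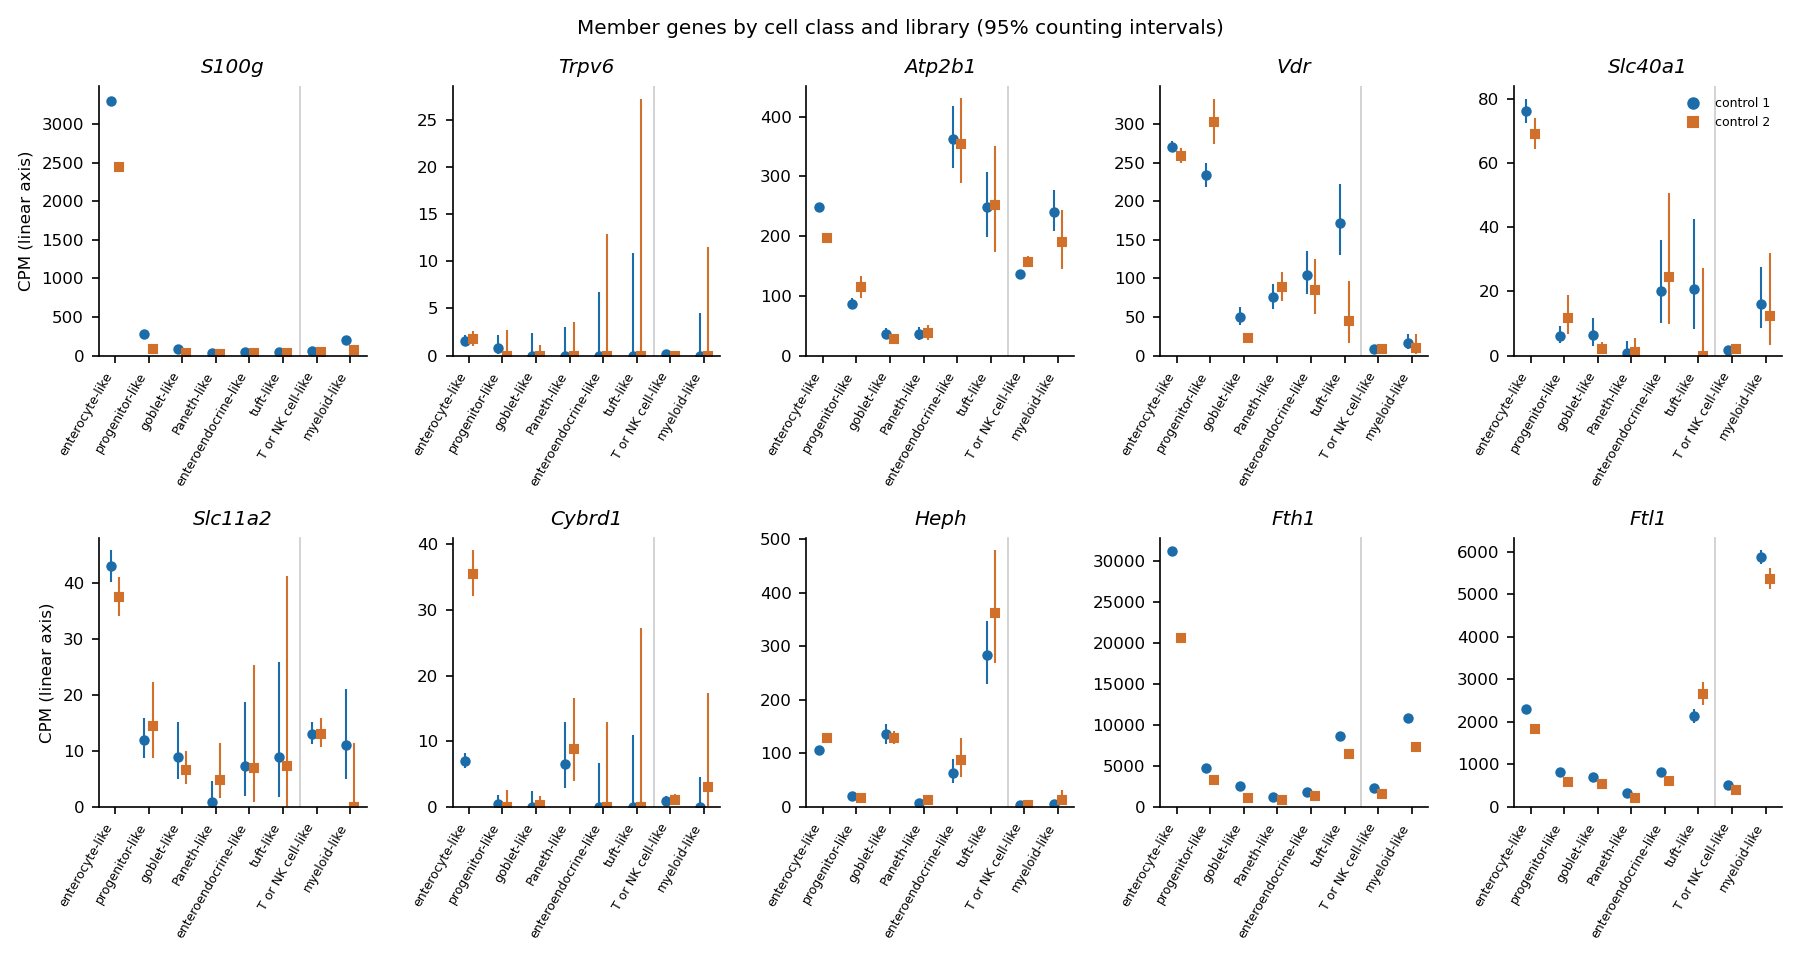
CPM of each member (linear axis) by cell class, with circles for control 1, squares for control 2 and bars for 95% counting intervals. Enterocyte-like cells are highest for S100g, Slc40a1, Slc11a2 and Fth1 in both libraries and for Cybrd1 in control 2, whereas Atp2b1 is highest in enteroendocrine-like, Heph in tuft-like and Ftl1 in myeloid-like cells.

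Of the 24 tested genes of a list of other calcium and vitamin D genes, 7 were at least 2-fold higher in enterocyte-like cells than in the other epithelial classes and 6 were lower, with a median log2 ratio of -0.19 beside -0.28 over all genes. The largest differences were in Slc8a1, a sodium-calcium exchanger (0.234 and 0.597 CPM against 82.7 and 76.5, log2 ratio -5.84), Atp2a3, a calcium pump of the endoplasmic reticulum (-4.44), and Slc30a10, a manganese exporter (44.4 and 53.0 against 2.08 and 1.94, log2 ratio 4.04). Of 30 tested genes for iron uptake, export and regulation, 6 were higher and 6 lower (median 0.34). Slc46a1, a carrier of folate and heme, was at 92.7 and 91.7 against 7.03 and 2.75 (log2 ratio 4.09), Flvcr1, a heme exporter, was higher by 2.43 and Slc39a8, a metal importer, was lower (-3.27). Of 9 heme synthesis genes, Alas1 (1.74) and Cpox (1.15) were higher and none lower (median 0.56). Beside these counts, 9.62% of all genes tested were higher and 20.6% lower in the same comparison.

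Enterocyte-like cells with at least 1% mitochondrial UMIs (599 in control 1 and 488 in control 2) and those below 1% (2992 and 1931) held the members in different proportions. Of the 10 members, 5 were at least 2-fold higher in the mitochondria-rich cells in both libraries (Atp2b1, Slc40a1, Slc11a2, Cybrd1 and Heph) beside 17.0% of all 11509 genes tested, and 1 was lower (Ftl1) beside 1.09% of genes. With the mean over cells in place of summed UMIs, and also with cells of 10% or more mitochondrial UMIs left out and the rest clustered anew, 2 members were higher and 0 lower, and in the second of these Slc40a1 turned to -0.36. The limit of 1% was set after the data were seen, and 523 and 281 cells lay between 0.5% and 2%.

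Heph and Atp2b1 showed the largest mean differences, and their order was not the same in both libraries. Heph was at 177 and 224 CPM in mitochondria-rich cells and at 16.9 and 29.1 in mitochondria-poor cells (log2 ratio 3.11 ± 0.29). Atp2b1 was at 414 and 335 against 38.8 and 56.2 (2.97 ± 0.59). The rich cells held 93.0% and 88.8% of the enterocyte-like UMIs of Heph and 93.1% and 86.0% of those of Atp2b1. Slc11a2 (68.5 and 59.1 against 10.6 and 15.2) and Slc40a1 (118 and 96.0 against 22.7 and 41.2) followed the same order.

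The ferritin genes ran the other way. Fth1 was at 23775 and 13470 in mitochondria-rich cells and 40826 and 27913 in mitochondria-poor cells (log2 ratio -0.92 ± 0.19, past 2-fold in control 2 only). Ftl1 was at 1489 and 1029 against 3330 and 2666 (-1.27 ± 0.15). S100g had no common direction, at 4090 and 2243 in rich cells against 2320 and 2656 in poor cells, and Vdr was equal in control 2 (259 and 259) and higher in the rich cells of control 1 (331 against 195). Malat1, an RNA that stays in the nucleus, moved with this split, at 3508 and 13494 CPM in rich cells against 341 and 494 in poor cells, and its part in these differences was not tested.

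When only mitochondria-rich cells were compared on both sides, 8 of the 10 members were higher in enterocyte-like cells than in the other epithelial classes, beside 8.86% of all genes. Trpv6 and Heph were now included, Trpv6 from 31 and 11 UMIs against 3 and 0, so that it had enough UMIs only through the enterocyte-like side and its ratio depends on the pseudocount (Heph 177 and 224 against 69.6 and 97.4, log2 ratio 1.26 ± 0.10), and Ftl1, with 1.02 and 0.93 in the libraries, was not. Among mitochondria-poor cells, 5 of 9 members tested were higher, beside 16.1% of genes. These 5 were S100g, Slc40a1, Slc11a2, Fth1 and Ftl1. Heph was level there, at 16.9 and 29.1 against 17.5 and 32.7.

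**Figure D2:**
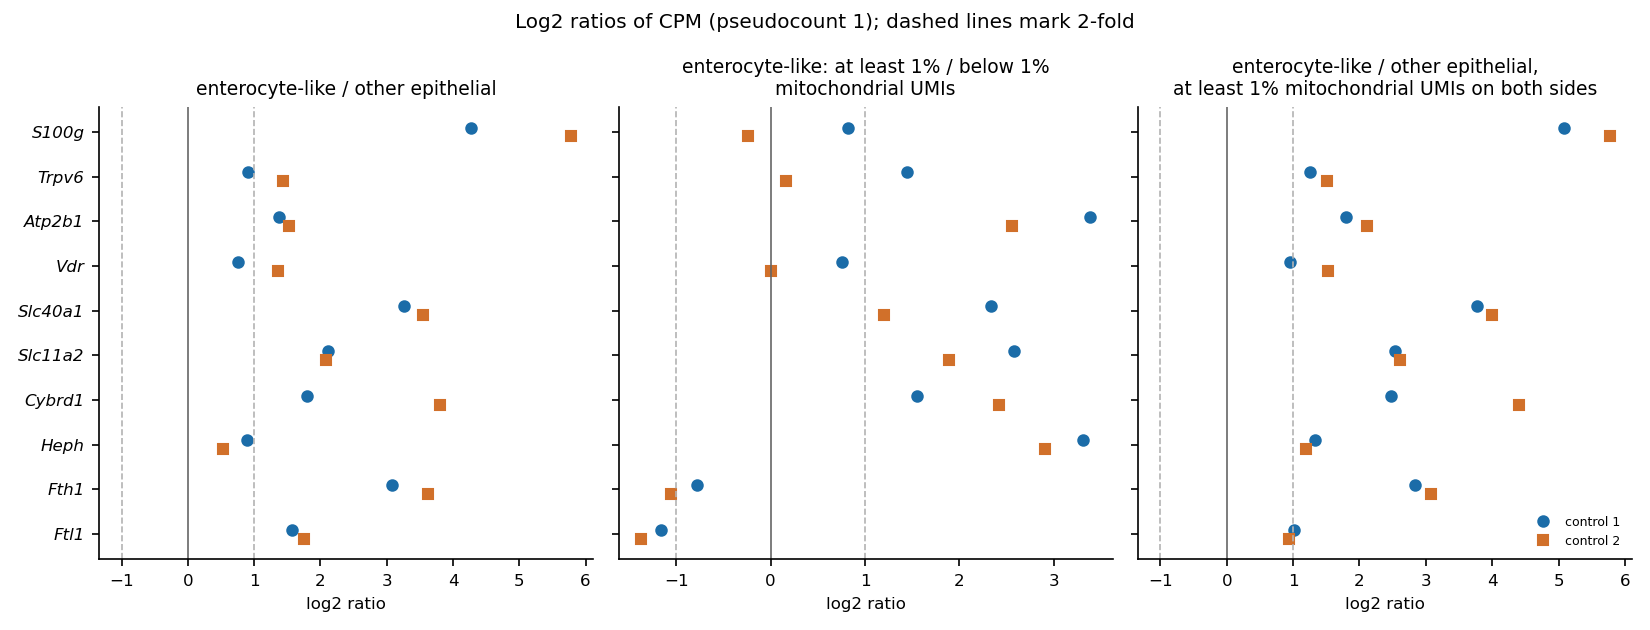
Log2 ratios of CPM (pseudocount 1) for each member in control 1 (circles) and control 2 (squares), with dashed lines at 2-fold. S100g, Slc40a1 and Fth1 lie far above 2-fold in enterocyte-like over other epithelial cells, in all cells and among mitochondria-rich cells, while Atp2b1 and Heph lie highest, and Fth1 and Ftl1 below 0, in the comparison of mitochondria-rich with mitochondria-poor enterocyte-like cells.

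Inside the enterocyte-like class the members peaked in different clusters. Over its 9 clusters, Atp2b1 (457 and 461 CPM), Slc40a1 (133 and 150) and Slc11a2 (77.0 and 94.0) were highest in both libraries in the deep cluster of 198 and 100 cells. Vdr was highest in both libraries in a cluster led by Papss2 and Gda (518 and 387), and Heph in the cluster that carried the villus tip genes Ada and Enpp3 (232 and 255). That cluster (52 and 101 cells) scored higher for goblet than for enterocyte markers (1.22 and 0.948) and was named enterocyte-like because all 12 enterocyte markers were detected and 4 of its 10 leading genes (Clca4a, Ada, Enpp3 and Slc28a2) were landmarks of the upper villus. S100g ranged from 70.2 to 4703 in control 1 and from 217 to 10184 in control 2, highest in both in a cluster led by glutathione transferase genes, in which S100g itself was among the leading genes. Cybrd1 was highest in a cluster led by Apoa1 and Reg3b in control 1 (13.8) and in the villus tip cluster in control 2 (127). The members were kept out of the clustering. Fth1 was lowest in the villus tip cluster in both libraries, at 4200.1 and 3009.

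Position along the villus was scored in each enterocyte-like cell from 10 landmark genes of the upper villus and 9 of the lower villus, none of them members, and cells were ranked into 5 bins of equal size. Cybrd1, Heph and Trpv6 were at least 2-fold higher in the uppermost than in the lowest bin in both libraries, and Slc11a2 was lower. Trpv6, with 15 and 18 UMIs in the uppermost bin against 4 and 0 in the lowest, had enough UMIs only through the uppermost bin, and its ratio depends on the pseudocount. The same held for Cybrd1, with 1 and 8 UMIs in the lowest bin. With both of these counted, 3 of 10 members were higher, beside 7.62% of the 10641 genes tested, and 1 lower, beside 10.8%.

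Cybrd1 was nearly confined to the top bin in both libraries. From the lowest to the uppermost bin it ran 0.119, 0.967, 1.36, 1.57 and 32.1 CPM in control 1 and 2.48, 0.575, 0.674, 0 and 108 in control 2. The top bin held 138 of its 150 UMIs in control 1 and 406 of 416 in control 2, and the top-to-bottom log2 ratio was 4.93 ± 0.06. The lowest bin held 1 and 8 UMIs, so Cybrd1 had enough UMIs only through the uppermost bin. Its ratio and the small spread over libraries depend on the pseudocount. With the cells divided by mitochondrial share and binned anew, the top bin was again the highest in each part of each library (56.4 and 160 in mitochondria-rich cells, 14.2 and 53.6 in mitochondria-poor cells). By cluster, Cybrd1 was highest in the villus tip cluster in control 2 only. That cluster scored higher for goblet than for enterocyte markers, and its part in the Cybrd1 level of the uppermost bin was not tested.

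Heph ranged over the lower 4 bins between 49.6 and 96.7 in control 1 and 53.9 and 86.6 in control 2, and stood at 201 and 238 in the uppermost bin (log2 ratio to the lowest 1.25 ± 0.28). It was higher at the top in mitochondria-rich (302 and 285 against 123 and 145) and in mitochondria-poor cells (33.4 and 51.7 against 14.3 and 17.4), and passed 2-fold in both libraries only in the mitochondria-poor cells. With cells of 10% or more mitochondrial UMIs left out and class names kept, the ratio of Heph was 0.29. The part of the villus tip cluster, which scored higher for goblet markers, in the Heph level of the uppermost bin was not tested. Slc11a2 was lower at the top. It had 28.4 and 18.4 in the uppermost bin and 60.3 and 79.1 in the lowest (-1.55 ± 0.70). In mitochondria-rich cells the difference remained (27.7 and 8.29 against 79.3 and 125), whereas in mitochondria-poor cells the uppermost bin had 16.1 and 12.7 and the lowest 13.0 and 21.0, without a common direction. Over all enterocyte-like cells of control 1, the uppermost bin lay above 2 of the 3 middle bins (21.9 and 25.9). No member was lower by the rule with 3 bins, a pseudocount of 10, at least 1000 genes per cell, the mean over cells, or under 10% mitochondrial UMIs with cells clustered anew.

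The other members did not pass the rule in all cells. S100g peaked in the middle bin in control 1 (7179, against 1982 in the lowest and 3109 in the uppermost) and ranged between 1974 and 2933 in control 2, highest in the lowest bin. The parts differed here. In mitochondria-rich cells of control 1 the middle bin stood at 12630, against 2793 in mitochondria-poor cells. In control 2 the mitochondria-rich cells had 402 in the uppermost bin against 3734 in the lowest, whereas the mitochondria-poor cells had 4536 in the uppermost against 1788 in the lowest. Slc40a1 was highest in the uppermost bin in control 1 (124 against 69.8 in the lowest) and in the lowest in control 2 (63.3 in the uppermost against 98.0). Atp2b1 was likewise highest in the uppermost bin in control 1 (358 against 260 in the lowest) and in the lowest in control 2 (238 in the uppermost against 272). Vdr lay between 220.1 and 352 in control 1 and between 231 and 287 in control 2. In mitochondria-poor cells, Atp2b1 (92.8 and 103 against 36.2 and 52.8), Vdr (249 and 391 against 160 and 208) and Slc40a1 (40.2 and 61.7 against 25.7 and 49.2) were all highest in the uppermost bin in both libraries, none past 2-fold in both. Over all enterocyte-like cells, Fth1 and Ftl1 were higher in the middle bins than in the lowest and lower again in the uppermost. Fth1 had 22541 and 8677 there, against maxima of 43257 in the next to highest bin of control 1 and 31566 in the second bin of control 2, and Ftl1 had 2150 and 1199 against 3346 and 2699 in the next to highest bin. For Ftl1 the parts differed. In mitochondria-poor cells its uppermost bin (3436 and 3029) lay above the lowest (2767 and 2169), in control 2 close to the maximum of 3049. In mitochondria-rich cells the uppermost bin had 1378 and 508 against 1256 and 1237 in the lowest. Fth1 was lower in the uppermost than in the lowest bin in each part of each library. Median mitochondrial shares were highest in the uppermost bin (0.227% and 0.284%), and the part of this in the profiles was not tested beyond the division above.

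**Figure D3:**
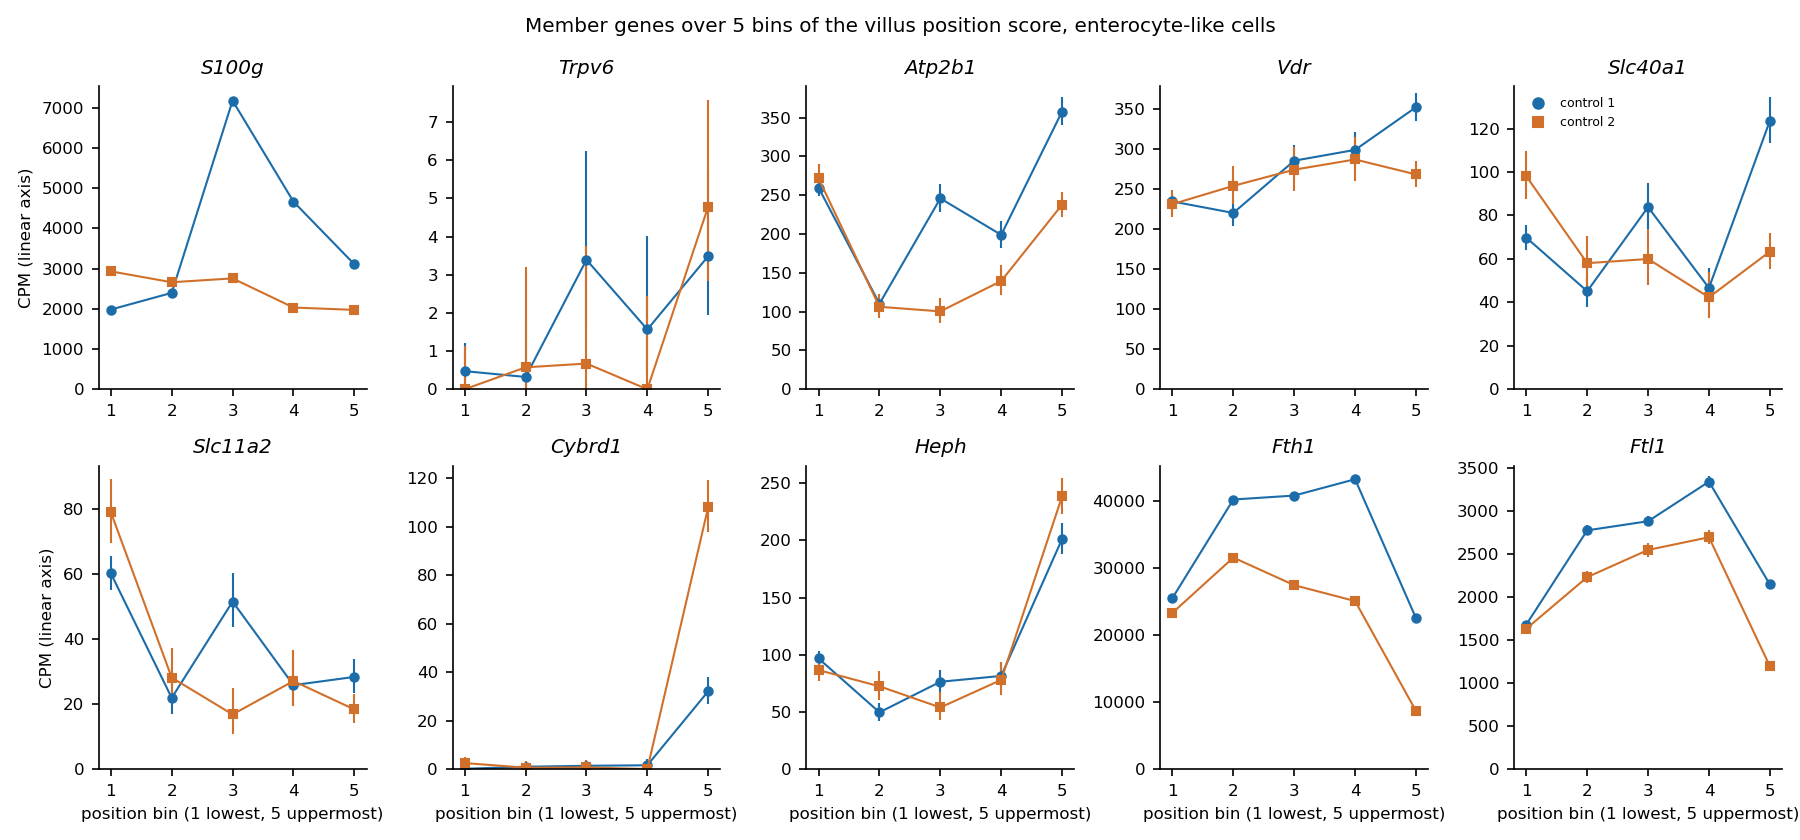
CPM of each member (linear axis) in enterocyte-like cells over 5 bins of the villus position score, from lowest (1) to uppermost (5), with 95% counting intervals. Cybrd1 and Heph are highest in bin 5 in control 1 (circles) and control 2 (squares), Slc11a2 is highest in bin 1, and S100g peaks in bin 3 in control 1 only.

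Among the other genes, 1 of 19 tested in the calcium list was higher at the top, Cyp27a1 (63.5 and 27.4 against 17.3 and 9.93), and 2 were lower, Cldn2, a crypt claudin (-2.95), and Calm2 (-1.41), with a list median of -0.03 beside -0.08 over all genes. In the iron list 6 of 22 were higher and 5 lower (median -0.14). Tfrc was at 3.02 and 2.40 CPM in the uppermost bin against 56.0 and 36.6 in the lowest (log2 ratio -3.65), and Ncoa4, the receptor that delivers ferritin to lysosomes, was at 251 and 216 against 65.5 and 64.2 (1.83). Of 9 heme synthesis genes none was higher and 1 was lower (list median -0.48). Beside these counts, 7.62% of all genes tested were higher at the top and 10.8% lower. In the mitochondria-rich cells, set against the mitochondria-poor ones, Slc39a14 (3.10), Tfrc (2.23) and Flvcr1 (1.76) of 24 iron genes were higher and none lower (median 0.14 beside 0.12 over all genes). Of 20 calcium genes, Atp2a2 (2.21), Trpm7 (1.75), Stim1 (1.73) and Slc30a10 (1.67) were higher and Calm3 (-1.24) lower (median 0.38), and of 9 heme genes Alas2 (1.20) was higher (median -0.51). Over all genes tested, 17.0% were higher in the mitochondria-rich cells and 1.09% lower.

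S100g divided the enterocyte-like cells, and members of the iron pathway stood higher in the cells that had more of it. Cells were thinned to 2000 UMIs and ranked by S100g within each library. The top 718 cells of control 1 had a median of 5 S100g UMIs and the top 470 of control 2 a median of 3, and the bottom 719 and 470 had none. Ties were ordered at random, so these bottom cells were a random part of the 1266 and 928 cells with no S100g UMI. Of the 8 other members tested, 4 were at least 2-fold higher in the S100g-high cells in both libraries (Slc40a1, Cybrd1, Atp2b1 and Slc11a2), beside 0.591% of the 7947 genes tested, S100g among them. Cybrd1 is counted here although it had enough UMIs only through the S100g-high cells. None was lower, beside 1.50% of genes. Trpv6, with 5 UMIs in S100g-high cells of each library, was not tested. Values are CPM with S100g left out of the total. Under 10% mitochondrial UMIs, clustered anew, or with a pseudocount of 10, 2 members passed.

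Slc40a1 had 79.3 and 114 CPM in S100g-high cells, against 6.95 and 9.57 in S100g-low cells, from 113 and 106 against 10 and 9 UMIs (log2 ratio 3.39 ± 0.07). Both high values lay far above both low values. At the same depth, 8.77% (7.00% to 10.8%) of the 889 cells with an S100g UMI in control 1 and 16.0% (12.8% to 19.6%) of 482 in control 2 also had a Slc40a1 UMI, against 1.34% (0.784% to 2.14%) of 1266 and 1.83% (1.07% to 2.92%) of 928 cells without one. Cybrd1 had 13 and 36 UMIs in S100g-high cells against 0 and 1 in S100g-low cells, so its ratio depends on the pseudocount.

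Atp2b1 had 140 and 171 CPM in S100g-high cells against 38.9 and 45.7 in S100g-low cells (1.85 ± 0.04), and Slc11a2 had 26.0 and 33.2 against 9.04 and 11.7 (1.43 ± 0.003), from 37 and 31 against 13 and 11 UMIs. Fth1 was higher by 0.84 in control 1 and 1.34 in control 2, with 54437 and 39948 against 30477 and 15828. Vdr (273 and 351 against 189 and 246, 0.52 ± 0.01) and Ftl1 (3306 and 2709 against 3047 and 2126, 0.23 ± 0.16) were higher by less than 2-fold, and Heph was slightly lower (30.9 and 52.5 against 36.9 and 61.7, -0.24 ± 0.01). The exporter was thus higher with S100g, and the oxidase that works with it was not.

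Among mitochondria-rich cells, 4 of 7 members tested were higher in the S100g-high cells (Atp2b1, Slc40a1, Slc11a2 and Fth1), beside 1.02% of genes. Among mitochondria-poor cells, 3 of 8 were higher (Slc40a1, Slc11a2 and Cybrd1), beside 0.557%. Several of these calls had few detections on the S100g-low side. Of mitochondria-rich cells without an S100g UMI, 5 in control 1 and 2 in control 2 had a Slc40a1 UMI. For Slc11a2 these were 4 and 6 cells. Of mitochondria-poor cells without an S100g UMI, 0 and 1 had a Cybrd1 UMI, so that ratio depends on the pseudocount. Atp2b1 did not pass in the mitochondria-poor cells, at 45.5 and 113 against 29.8 and 37.7. There, 4.68% and 14.7% of cells with an S100g UMI also had an Atp2b1 UMI, against 5.52% and 4.56% of cells without one, in opposite orders in the 2 libraries. Slc40a1 was at 49.9 and 96.7 against 5.11 and 14.8 in the mitochondria-poor cells. Within bins of villus position, Slc40a1 and Atp2b1 each passed 2-fold in both libraries in 4 of the 5 bins. Slc40a1 had too few UMIs in the remaining bin, the next to highest, and Atp2b1 had log2 ratios of 1.56 and 0.64 there. Slc11a2 passed in the lowest bin and Cybrd1 in the uppermost, and each had too few UMIs in the other 4 bins. Fth1 passed in the second bin only (1.01 and 1.31). Log2 ratios of Slc40a1 reached 6.54 in the second bin of control 2 and 7.79 in the uppermost bin of control 1. Slc11a2 had 5.37 in the lowest bin of control 1, and Cybrd1 had 5.65 and 4.88 in the uppermost. Ratios of this size depend on the pseudocount, and the share of all genes passing in each bin is not given here.

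Other features moved with S100g. Pdx1, a factor that marks the duodenum, was at 82.8 and 72.9 CPM in S100g-high cells against 13.2 and 10.6 in S100g-low cells (log2 ratio 2.61 ± 0.07), while Gata4 (54.7 and 94.3 against 61.9 and 97.9) and Onecut2 (121 and 199 against 93.9 and 146) differed by less than 2-fold. Of the landmark lists, Reg1 of the lower villus was higher (2.13), and Nt5e, Slc28a2, Egfr and Clca4a of the upper villus were lower (between -3.02 and -1.26). The part of the site along the intestine or of villus position in the differences of the members was not tested beyond the bins. Of the fixed lists, 1 of 16 calcium genes tested (Slc30a10, 1.80) and 1 of 20 iron genes (Ncoa4, 1.06) were higher, none lower, and 0 of 8 heme genes passed. The list medians were -0.08, -0.05 and -0.01 beside -0.09 over all genes, of which 0.591% were higher and 1.50% lower.

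**Figure D4:**
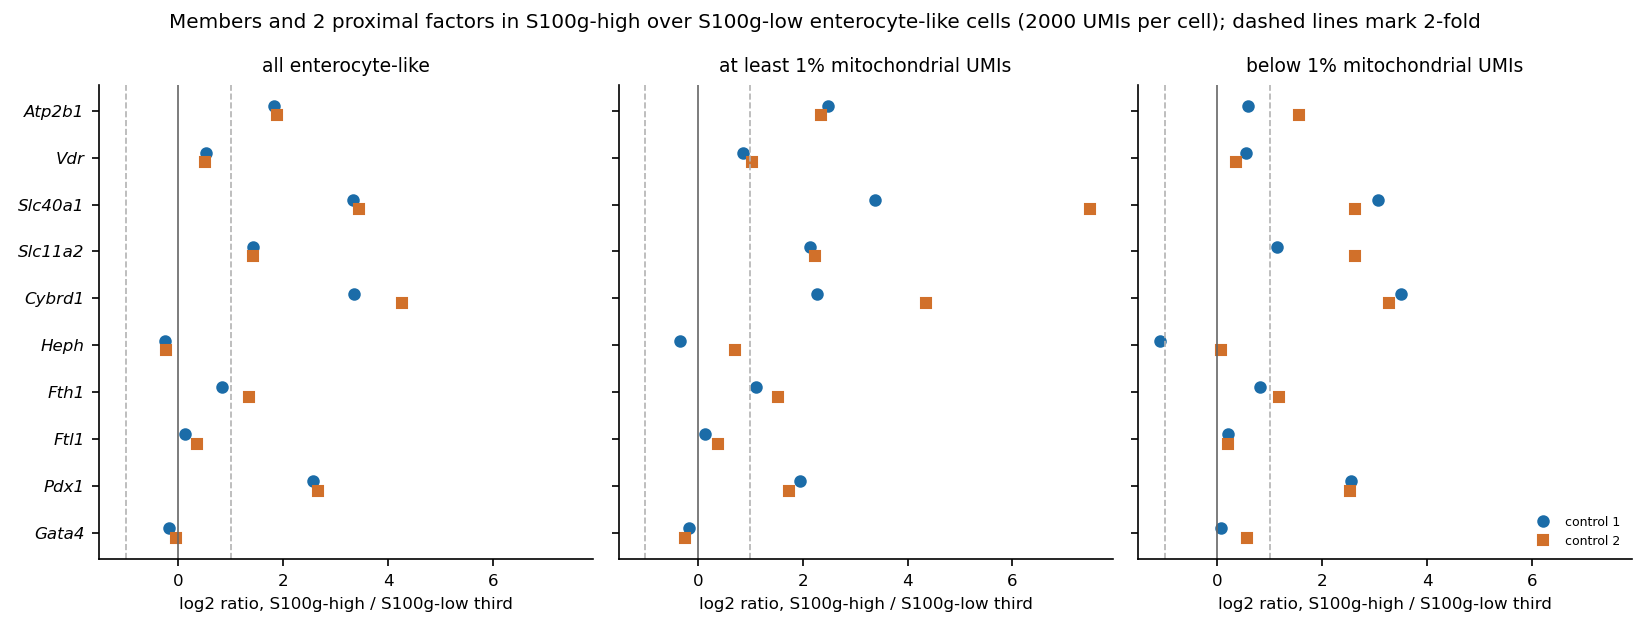
Log2 ratio (pseudocount 1) of S100g-high to S100g-low enterocyte-like cells for the other members and for Pdx1 and Gata4, in all cells and in the parts above and below 1% mitochondrial UMIs, with circles for control 1, squares for control 2 and dashed lines at 2-fold. Slc40a1 lies above 2-fold in both libraries in all 3 panels, and Ftl1 and Gata4 lie near 0; Trpv6, with 5 UMIs or fewer a side, is not drawn.

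The genes whose levels ran most like a member were ranked by Pearson correlation of log2 levels over 40 profiles (20 clusters in each of 2 libraries) among 5152 genes expressed in enterocyte-like cells; the profiles share libraries and cell classes, so the values are descriptions. For S100g these were Sult6b2 (r = 0.930), Papss2 (0.878), Sis (0.870), Reg1 (0.867) and Adh6a (0.865). For Slc40a1 they were Nfe2l2 (0.842), Usp2 (0.838), Slc26a3 (0.830) and Slc2a2 (0.822). For Cybrd1 they were Acsl5 (0.803), Cyp4v3 (0.798), Hsd17b11 (0.779), Akp3 (0.777) and Dgat1 (0.760).

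The ferritin chains were followed into immune and red cells, where their balance differed. Each molecule is counted once near its 3′ end whatever its length, so the ratio of Fth1 to Ftl1 UMIs can be set side by side between classes, though it is a ratio of RNA and not of ferritin chains. Enterocyte-like cells had 13.6 Fth1 UMIs per Ftl1 UMI in control 1 and 11.2 in control 2. Progenitor-like cells had 5.84 and 5.56, T/NK-like cells 4.48 and 3.87, and goblet-like cells 3.62 and 2.06.

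Myeloid-like cells had the highest Ftl1 of all classes, 5872 and 5364 CPM, against 2302 and 1837 in enterocyte-like cells (log2 ratio 1.45 ± 0.14). Their Fth1 was 10887 and 7378, against 31300.1 and 20598 in enterocyte-like cells (-1.50 ± 0.03). The ratio of the chains was accordingly 1.85 and 1.38. In the same cells Slc11a1, the phagosomal relative of Slc11a2, was at 85.3 and 65.4 CPM against 0.0469 and 0.171 in enterocyte-like cells, while Slc11a2 itself had 9 and 0 UMIs. Slc40a1, which is known to export iron from macrophages that recycle red cells, had 13 and 4 UMIs in myeloid-like cells, 16.1 and 12.5 CPM.

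Barcodes in which hemoglobin made up at least 50% of the UMIs numbered 522 in control 1 and 683 in control 2. Most had under 500 genes (488 and 661) and so lay outside the clusters. They had 1.23 and 0.699 Fth1 UMIs per Ftl1 UMI, the lowest ratio in control 2 and among the lowest in control 1, where B or plasma cell-like cells had 0.921. Of these barcodes, 87.7% and 80.4% had an Fth1 UMI and 86.0% and 89.0% an Ftl1 UMI. Scaled to UMIs outside the hemoglobin genes, Fth1 was at 19780 and 11009 CPM and Ftl1 at 16122 and 15742 CPM. Erythroid-like cells that passed the filters, 47 and 28, had ratios of 6.82 and 2.53. On the same scale, Fabp1, an enterocyte gene, was at 9973 and 5890 CPM in the hemoglobin barcodes and at 15582 and 13313 in the erythroid-like cells, against 23333 and 20738 in enterocyte-like cells. The part of enterocyte RNA in their ferritin levels was not tested.

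**Figure D5:**
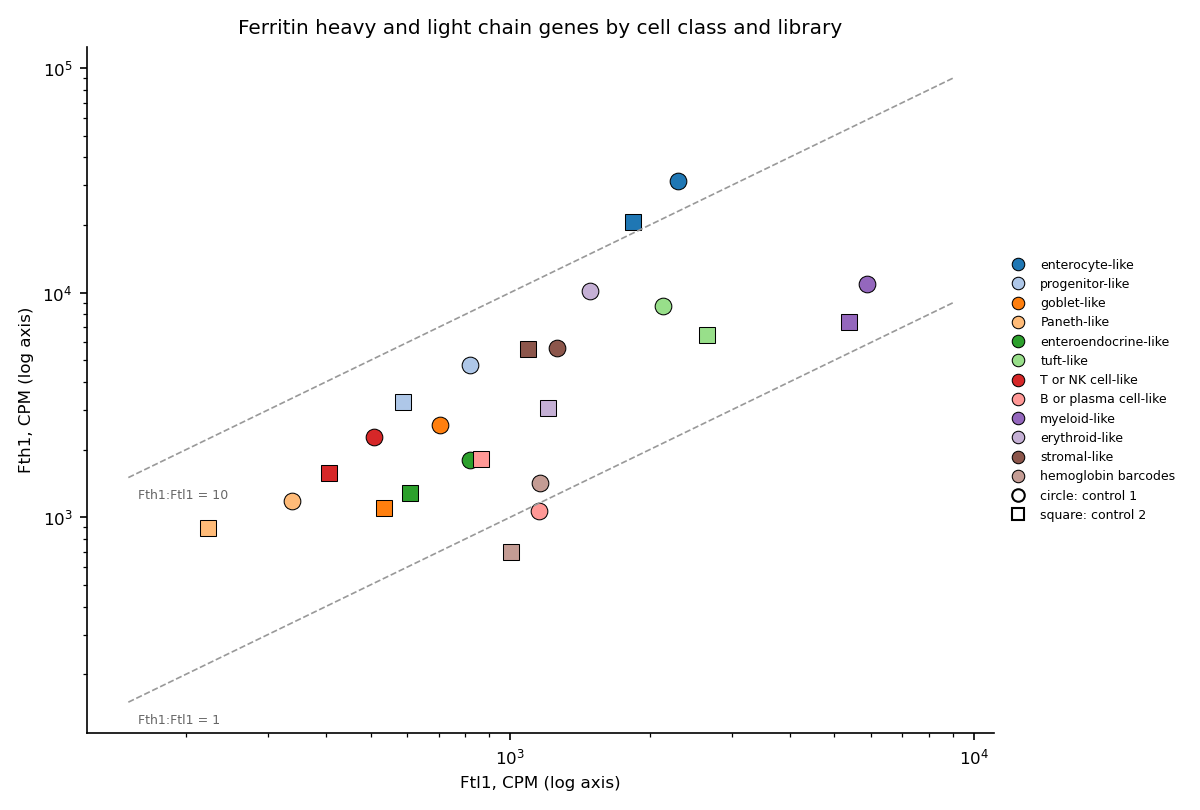
Fth1 against Ftl1 in CPM (both axes logarithmic) for each cell class and for barcodes with at least 50% hemoglobin, with circles for control 1, squares for control 2 and dashed lines at ratios of 10 and 1. Enterocyte-like cells lie above the ratio of 10 in both libraries, and myeloid-like cells, furthest to the right, and hemoglobin barcodes lie near the ratio of 1.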

How the data were processed

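The deposited matrices hold whole-number UMI counts for each gene in each barcode. Per the file headers they came from Cell Ranger 7.1.0, and the submitters' processing notes list versions 6.1 and 7.1.0 together with GRCm38 and mm10. How barcodes were filtered, which annotation was used and how intronic reads were treated is not given in the sources used here. Members and gene lists were chosen with earlier results of these data known. Barcodes with under 500 genes or at least 25% mitochondrial UMIs were left out, as were 59 and 31 Scrublet calls. Cells of both libraries were clustered jointly with scanpy 1.11.5 (2000 variable genes without the members, 40 components, 15 neighbours, Leiden resolution 1.0). Clusters were named from fixed markers, needing at least 3 detected, by a scoring rule set after the data were seen (villus landmarks counted as enterocyte genes), and names end in "-like" for this reason. Counts were summed per class and library and scaled to CPM (per 1000000 UMIs). Ratios used a pseudocount of 1, and the rule was 2-fold in the same direction in both libraries with at least 10 UMIs over both sides in each. Intervals are exact Poisson or binomial 95% intervals and cover counting error only. With 2 libraries in 1 group no test between conditions exists. Named genes were all 10 members, up to 3 genes of each list with the largest ratios past the rule in a comparison, and for S100g, Cybrd1 and Slc40a1 the 5 genes most like them, except that a few genes this rule names are not reported here; genes outside this rule (Malat1, Fabp1, Slc11a1, Ftl1-ps1, the landmark and proximal genes, and Slc30a10 and Calm3 in the comparison by mitochondrial share) were chosen after their values were seen. The 2-fold rule was tried on simulated class sums that held counting error only, without variation between cells, and the thinning was checked on cells of these data.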

Additional observations from a re-analysis of the deposited data

How the results depend on the processing

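The counts of members past 2-fold were 7 higher and 0 lower by class, 5 and 1 by mitochondrial share, 3 and 1 by villus position and 4 and 0 by S100g level. Under 10% mitochondrial UMIs, with cells clustered and named anew, they were 2 and 2, 2 and 0, 3 and 0, and 2 and 0. In that setting the enterocyte-like over other epithelial log2 ratios of Atp2b1 (-1.52), Slc40a1 (-0.32) and Slc11a2 (-1.39) reversed, and Slc40a1 in mitochondria-rich over mitochondria-poor cells was -0.36. A cluster then named progenitor-like (120 and 39 cells) held 86 and 22 cells, with 71.8% and 56.7% of its UMIs, that were enterocyte-like before. With the names kept, an alternative added after the data were seen, the 3 ratios by class were 0.90, 3.07 and 1.86, with 5 members higher and 0 lower by class and 1 higher by position. By position, no member was lower with at least 1000 genes per cell, with 3 bins, with the mean over cells, or with a pseudocount of 10. None was lower in cells below 1% mitochondrial UMIs, beside 4.35% of genes. With a pseudocount of 10, 1 member was higher. In cells of at least 1%, 1 was also higher, beside 9.91% of genes. The mean over cells left 2 higher and 0 lower by mitochondrial share, and a pseudocount of 10 left 2 higher by S100g level. The causes of these shifts were not tested. Other than for cells divided at 1%, shares over all genes are not given for these settings, so the counts have no background beside them. Leaving out each library in turn gave 1 to 2 members lower by mitochondrial share and 1 to 2 by position. The myeloid-like over enterocyte-like ratio of Fth1, -1.50, was -1.83 under 10% mitochondrial UMIs (-1.72 with names kept), -1.86 with at least 1000 genes, -1.40 without the 6% highest Scrublet scores, -1.28 with the mean over cells, -1.56 scaled without mitochondrial UMIs, and -1.41 and -1.30 in cells of at least and below 1%. That of Ftl1, 1.45, was 0.98, 1.20, 1.12 and 1.61 in the first 4 of these and 1.73 in cells of at least 1%. Of all alternative values, 88 counts or ferritin ratios and 312 single ratios stayed within the limits set for a shift, and 32 and 138 moved without changing sign. No paired analysis was possible because both libraries belong to 1 group and no conditions are compared; each ratio is already taken within a library. Limits are the depth of Trpv6 and Cybrd1 and 2 libraries that may share an animal. Class sums in control 1 also rest largely on 198 deep cells. Doublets are a further limit, because Scrublet called only 59 and 31 cells and many may remain. Among kept cells, 100 and 41 held over 50000 UMIs, 71 and 19 of them enterocyte-like, and whether these were doublets was not tested.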

Other observations

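Ftl1-ps1, by its symbol a pseudogene of Ftl1, had 323 and 99.6 CPM in myeloid-like cells of control 1 and control 2, and 136 and 21.8 CPM in enterocyte-like cells. Ftl1 itself differed less between the libraries (5872 and 5364 CPM in myeloid-like cells, 2302 and 1837 CPM in enterocyte-like cells).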
